A study of Mus musculus with 64 samples.

Results

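S1pr1, Klf2, Klf3, Il7r and Foxo1 are 5 mouse genes of T cell quiescence and of the traffic of T cells through lymphoid organs. They were chosen by name from a table of 23134 genes, and all 5 passed the filter on low values that left 16140 genes for testing. RNA of cultured splenic CD4 T cells from C57BL/6J mice had been sequenced in 64 libraries, 4 in each of 16 groups. The groups were formed by 4 genotypes and 4 times of restimulation through the T cell receptor. TKO mice carried Cd4-Cre-ERt2 with Rc3h1/2 fl/fl and Zc3h12a fl/fl, DKO mice carried it with Rc3h1/2 fl/fl alone, KO mice with Zc3h12a fl/fl alone, and WT mice carried Cd4-Cre-ERt2 alone. All groups, WT included, therefore carried a Cre that is active only with tamoxifen and was driven from Cd4, and 4'-OH-tamoxifen was used to delete the floxed genes. Rc3h1 and Rc3h2 encode Roquin-1 and Roquin-2, and Zc3h12a encodes Regnase-1. The cells were then activated with anti-CD3/28 in Th1 conditions, grown in medium with IL-2, and restimulated with anti-CD3/28 for 1, 2 or 4 h or left without (0 h), so the 0 h cells were previously activated cells and not naive ones.

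FOXO1 is a transcription factor that stays in the nucleus of resting T cells and switches on genes of survival and homing, among them Il7r and Klf2. KLF2 in turn switches on S1pr1, whose receptor for sphingosine-1-phosphate lets T cells leave lymphoid organs, while KLF3 is a related repressor that is itself switched on by KLF factors in red cell precursors. Signals from the T cell receptor drive FOXO1 out of the nucleus and lower Klf2, S1pr1 and the interleukin-7 receptor, so these transcripts are known as marks of the resting state. Roquin and Regnase-1 are RNA-binding proteins that bind stem-loops in 3′ UTRs and promote the decay of mRNAs of T cell activation, and the series asked how they act together.

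In GRCm38, S1pr1 (ENSMUSG00000045092) lies at chr3:115710433-115715072 on the minus strand, Klf2 (ENSMUSG00000055148) at chr8:72319033-72321656 on the plus strand and Klf3 (ENSMUSG00000029178) at chr5:64803388-64832901 on the plus strand. Il7r (ENSMUSG00000003882) lies at chr15:9505788-9530176 on the minus strand and Foxo1 (ENSMUSG00000044167) at chr3:52268336-52353221 on the plus strand. Because both proteins are known to recognise short hairpins with a pyrimidine-purine-pyrimidine loop, the 3′ UTR of the longest coding transcript of each member was read for a loop of 3 such bases on a stem of at least 5 Watson-Crick pairs (GENCODE M21, GRCm38). Klf3 held 1 such run, Foxo1 held 2, and S1pr1, Klf2 and Il7r held none. The runs found are shown with the loop in capitals and the paired bases on either side. Whether they bear on the differences between genotypes was not tested.
Klf3, chr5:64830326-64830340, plus strand: tgtgtcTATgacaca
Foxo1, chr3:52348022-52348034, plus strand: acagaCACtctgt
Foxo1, chr3:52352494-52352506, plus strand: gaggaCATtcctc
The Klf3 run spans bases 1168 to 1182 of a 3′ UTR of 3743 bases and has 6 pairs, and the Foxo1 runs have 5 pairs each in a 3′ UTR of 6240 bases. Of tested genes with a 3′ UTR within 1.25-fold of the length of Klf3's, 48.6% held at least 1 such run, and 64% did for Foxo1. For the shorter 3′ UTRs of S1pr1, Klf2 and Il7r the shares were 23.4%, 15.6% and 38.7%. A match is a description of the letters and not a binding site.

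The recovered library totals were 5369849 to 11665883 reads, with a median of 7720324. Values below are normalized counts, that is, reads scaled to the median depth and for library composition. The targeted genes moved with the labels only in part: Zc3h12a averaged 459.9 ± 36.1 in TKO and 538 ± 109 in KO cells at 1 h, against 876 ± 114 in WT cells, and Rc3h1 averaged 592 ± 59.4 in TKO and 518 ± 20 in DKO cells at 4 h, against 1165 ± 63.2 in WT cells (SD, n = 4 libraries). At 0 h Zc3h12a was not lower in TKO or KO than in WT cells, and Rc3h2 was not lower in any knockout at any time. At 4 h Zc3h12a averaged 122 ± 10.4 in TKO, 126.9 ± 36 in KO and 139.3 ± 24.6 in WT cells, with overlapping libraries. Rc3h1 libraries overlapped at 0 h, with means of 542 ± 65.1 in TKO, 486.8 ± 58.7 in DKO and 609.5 ± 81.5 in WT cells. Which exons are deleted is stated in no source used here, and a value covers a whole gene. T cell markers summed to 6940 to 18700 normalized counts in every library and CD4 T cell markers to 699 to 2570. NK cell markers summed to at most 13.7 and neutrophil markers to at most 4.27. By how they varied together over genes other than the 5, libraries were sorted into 4 sets that each held 1 library per group. Of the 64 libraries, 61 were closest to their own set. The sorting sought that likeness, so this count is not separate evidence that the sets are real. In set 3 the TKO library was the lowest of its group for S1pr1 and for Il7r at every time, and calls that end or appear without this set are given both ways. A numbered library below is named by its place in the deposited list of its group. Whether a group's 4 libraries are separate mice or cultures is not in the labels, and p-values therefore measure only the spread between these libraries.

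**Figure D1:**
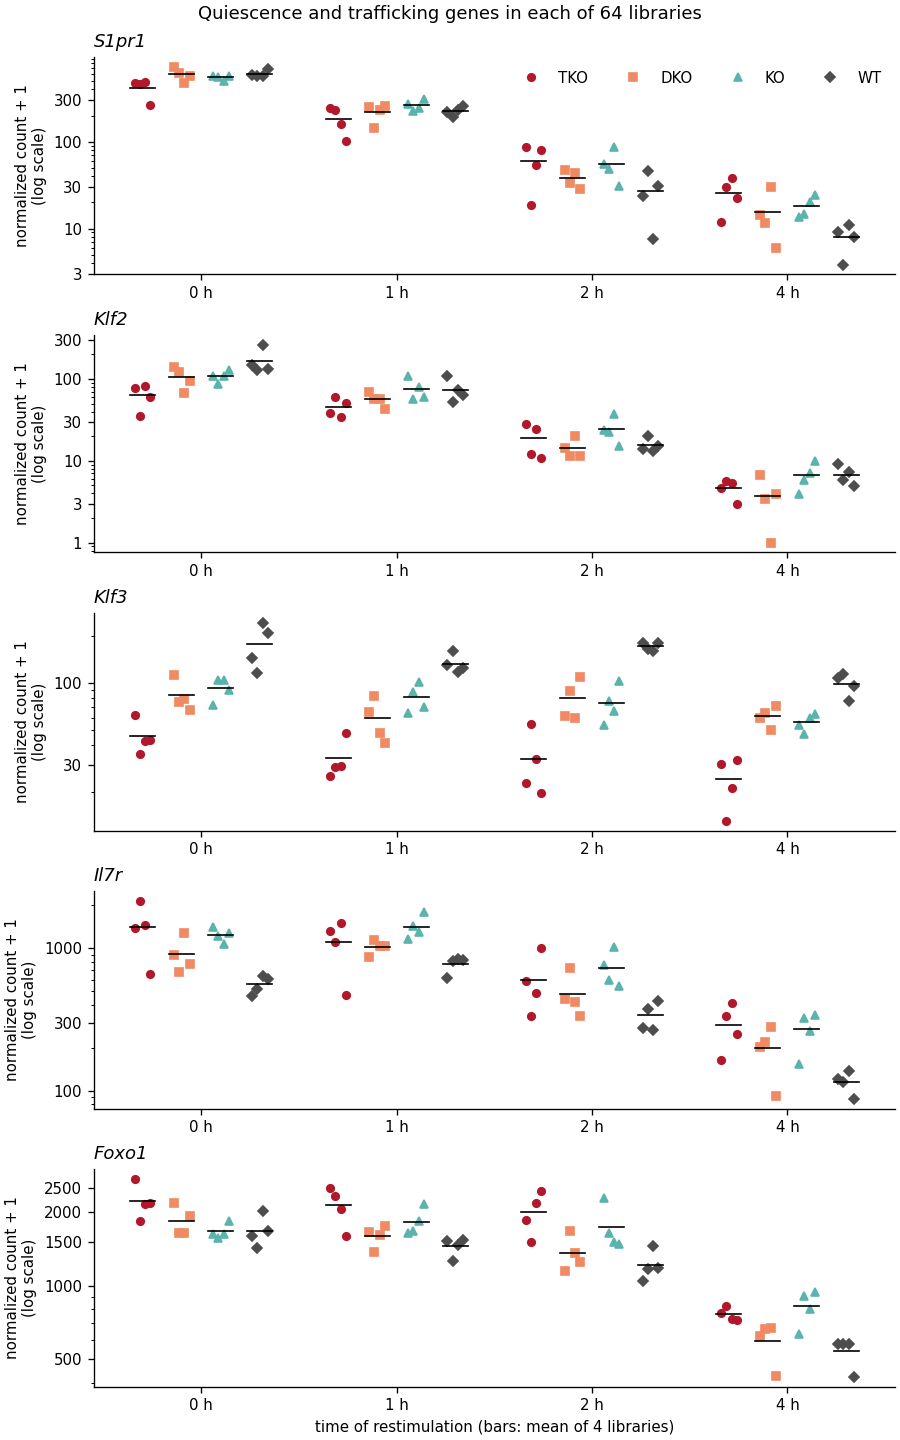
Normalized count plus 1 (log axis) of S1pr1, Klf2, Klf3, Il7r and Foxo1 in each of 64 libraries (points) by time of restimulation in hours, with the mean of 4 libraries per group as a bar, for TKO, DKO, KO and WT cells. S1pr1 and Klf2 step down with time in all 4 genotypes, while Klf3 has its lowest mean in TKO cells and its 4 highest libraries in WT cells at every time.

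The members fell with restimulation, and each of their calls against 0 h was in that direction. S1pr1 and Klf2 fell steepest, Il7r and Foxo1 fell later, and Klf3 fell least. At 1 h, 1 of 5 members was lower in TKO cells, 1 in DKO cells, 1 in KO cells and 2 in WT cells (limma, Benjamini-Hochberg adjusted p under 0.05), where 9.27%, 12.7%, 10.4% and 12.5% of all tested genes were lower. At 2 h the counts were 3 in TKO, 4 in DKO, 3 in KO and 3 in WT cells, against 22.9%, 25.6%, 28% and 25.5% of all genes. At 4 h all 5 members were lower in TKO, KO and WT cells and 4 of 5 in DKO cells, against 23.1%, 27.7%, 27.1% and 26.9% of all genes in the same genotypes. The 3 comparisons of a genotype share its 0 h libraries. In RNA from whole cultures, fewer cells that hold a transcript and less of it per cell cannot be told apart.

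S1pr1, the sphingosine-1-phosphate receptor of lymphocyte egress, lost most of its transcript within 2 h. In TKO cells the 4 libraries held 263, 459, 473 and 480.0 normalized counts at 0 h, 101, 157, 229 and 241 after 1 h, 17.6, 53.3, 80.2 and 86.9 after 2 h and 10.9, 21.4, 29.0 and 37.1 after 4 h. In WT cells they held 571, 577, 583 and 694 at 0 h, 194, 216, 232 and 255 after 1 h, 6.64, 22.8, 29.6 and 44.4 after 2 h and 2.85, 7.04, 8.22 and 9.93 after 4 h. Already at 1 h no library of either genotype reached its own 0 h range, and at 4 h every TKO library lay above every WT library. The DKO libraries held 473, 567, 616 and 726 at 0 h, 143, 233, 251 and 255 after 1 h, 27.3, 32.8, 42.4 and 46.7 after 2 h and 5.04, 10.5, 13.3 and 29.2 after 4 h. The KO libraries held 496, 561, 566 and 572 at 0 h, 228, 244, 269 and 307 after 1 h, 29.6, 47.1, 53.9 and 86.4 after 2 h and 12.7, 13.7, 19.0 and 23.5 after 4 h. All later libraries of DKO and of KO cells were likewise below the 0 h libraries of the same genotype.

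By 4 h the mean S1pr1 level was 5.87% of the 0 h level in TKO, 2.44% in DKO, 3.14% in KO and 1.16% in WT cells. The log2 change from 0 to 4 h was -4.12 ± 0.41 in TKO (adjusted p = 1.54e-12), -5.48 ± 0.41 in DKO (4.18e-17), -4.95 ± 0.41 in KO (1.75e-15) and -6.34 ± 0.41 in WT cells (2.2e-19; SE, n = 4 libraries per group, limma). These 4 h values rest on few reads, 107 over the 4 TKO libraries, 62 in DKO, 88 in KO and 31 in WT cells. At 1 h S1pr1 was already called lower in all 4 genotypes, with log2 changes of -1.24 in TKO, -1.45 in DKO, -1.07 in KO and -1.43 in WT cells. The call in TKO cells was lost without 0 h library 1, 2 or 3 of the deposited list or 1 h library 3 or 4 (adjusted p up to 0.107), and that in KO cells without any 0 h library or 1 h library 1, 2 or 3 (up to 0.076). The spread behind these p-values was estimated over all 64 libraries, the low later ones included. In both genotypes the 1 h change was negative in each of the 4 library sets, from -1.30 to -0.88 in KO cells.

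Il7r encodes the alpha chain of the interleukin-7 receptor, through which resting T cells receive survival signals. In TKO cells its libraries held 661, 1383, 1457 and 2142 normalized counts at 0 h, 470.0, 1111, 1318 and 1514 after 1 h, 335, 482, 586 and 997 after 2 h and 163, 250.5, 333 and 414 after 4 h. In WT cells they held 463, 514, 611 and 638 at 0 h, 621, 815, 819.8 and 846 after 1 h, 268, 276, 373 and 428 after 2 h and 86.8, 114, 120.2 and 135 after 4 h. The 1 h libraries of WT cells overlapped their 0 h range only at the low end, and by 4 h all libraries of both genotypes lay below their 0 h range. The DKO libraries held 678, 775, 889 and 1287 at 0 h, 872, 1040, 1043 and 1146 after 1 h, 335, 417, 436 and 727 after 2 h and 90.0, 203, 218 and 281 after 4 h. In KO cells the values were 1066, 1211, 1274 and 1418 at 0 h, 1152, 1308, 1428 and 1786 after 1 h, 540.0, 595, 765 and 1014 after 2 h and 154, 259.5, 323 and 336 after 4 h. The 4 genotypes ended at nearly the same share of their own start.

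At 4 h that share was 20.6% of the 0 h mean in TKO, 21.8% in DKO, 21.6% in KO and 20.5% in WT cells. The log2 change from 0 to 4 h was -2.24 ± 0.33 in TKO (adjusted p = 6.03e-08), -2.26 ± 0.33 in DKO (3.59e-08), -2.26 ± 0.33 in KO (3.46e-08) and -2.28 ± 0.33 in WT cells (3.13e-08). At 2 h Il7r was called lower, with changes of -1.23 ± 0.33 in TKO cells (0.00138), -0.94 ± 0.33 in DKO cells (0.0125) and -0.81 ± 0.33 in KO cells (0.031). The DKO call was lost without 0 h library 3 (adjusted p = 0.0637), and the KO call without 0 h library 1 or 4 or 2 h library 2 or 4 (up to 0.0769). In WT cells the 2 h change of -0.74 ± 0.33 had an adjusted p of 0.0515, and it was called under 3 other scalings, with adjusted p-values of 0.00762 to 0.0411. At 1 h the mean stood at 78.2% of the 0 h level in TKO, 113% in DKO, 114% in KO and 139% in WT cells, and no 1 h change was called. Without library set 3 the WT change at 1 h was 0.71 ± 0.24 (adjusted p = 0.0219).

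Klf2, the factor that drives S1pr1, followed the same course from a lower level. Its TKO libraries held 34.2, 59.8, 77.2 and 80.8 normalized counts at 0 h, 33.3, 37.3, 50.4 and 58.5 after 1 h, 9.89, 11.0, 23.7 and 27.2 after 2 h and 1.94, 3.64, 4.41 and 4.67 after 4 h. The WT libraries held 127, 131, 147 and 260.3 at 0 h, 51.3, 62.4, 72.2 and 107 after 1 h, 12.2, 13.0, 14.3 and 19.3 after 2 h and 3.91, 4.75, 6.32 and 8.22 after 4 h. The TKO libraries started below every WT library and overlapped them at 4 h, and from 2 h on no library of either genotype reached its 0 h range. In DKO cells the means were 105 ± 31.9, 55.6 ± 11.3, 13.4 ± 4.12 and 2.76 ± 2.34 at 0, 1, 2 and 4 h. In KO cells they were 108 ± 17.8, 75.6 ± 23.2, 23.7 ± 9.08 and 5.68 ± 2.45 (SD, n = 4 libraries).

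The log2 change of Klf2 from 0 to 4 h was -3.75 ± 0.36 in TKO (adjusted p = 3.56e-13), -5.05 ± 0.36 in DKO (3.28e-18), -4.08 ± 0.36 in KO (1.02e-14) and -4.60 ± 0.36 in WT cells (1.44e-16). With 16, 13, 29 and 25 reads over the 4 libraries of these groups at 4 h, the 4 h levels are close to the limit of detection. At 2 h the changes were -1.81, -2.86, -2.19 and -3.37 in TKO, DKO, KO and WT cells, all called. At 1 h the change of -1.16 ± 0.36 in WT cells was called (adjusted p = 0.00988), though not without 0 h library 3 of WT cells (0.054), which holds the highest Klf2 value of all. In DKO cells the 1 h change of -0.87 ± 0.36 was not called (0.0591), and it was under all 4 other scalings, with a pseudocount of 5, in a fit of the compared groups alone, in a fit with a term for library set and by voom (0.00497 to 0.0478).

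Foxo1, the transcription factor upstream of Il7r and Klf2, fell mostly between 2 and 4 h. Its TKO libraries held 1828, 2156, 2176 and 2715 normalized counts at 0 h, 1597, 2058, 2324 and 2509 after 1 h, 1507, 1847, 2160 and 2440 after 2 h and 725, 731, 768 and 826 after 4 h. The WT libraries held 1418, 1594, 1671 and 2013 at 0 h, 1260, 1459, 1523 and 1538 after 1 h, 1040, 1165, 1178 and 1452 after 2 h and 423, 574, 574 and 578 after 4 h. The 4 h libraries of either genotype lay below all its earlier libraries, while the 0, 1 and 2 h ranges overlapped. The DKO libraries held 1630, 1639, 1924 and 2160 at 0 h, 1150, 1241, 1358 and 1664 after 2 h and 426, 619, 661 and 667 after 4 h, and averaged 1597 ± 161 at 1 h. The KO libraries held 1562, 1625, 1626 and 1839 at 0 h, 1639, 1665, 1829 and 2143 after 1 h, 1480, 1500, 1644 and 2276 after 2 h and 632, 803, 909 and 942 after 4 h. KO cells kept the largest share of their 0 h mean at 4 h, 49.4%, against 34.4% in TKO, 32.3% in DKO and 32.1% in WT cells.

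On the log2 scale Foxo1 changed by -1.53 ± 0.15 in TKO (adjusted p = 1.12e-12), -1.64 ± 0.15 in DKO (5.29e-14), -1.03 ± 0.15 in KO (4.92e-08) and -1.64 ± 0.15 in WT cells (6.87e-14) from 0 to 4 h. At 2 h it was called lower in DKO cells (-0.45 ± 0.15, adjusted p = 0.0112) and in WT cells (-0.47 ± 0.15, 0.00789). The DKO call was lost without 0 h or 2 h library 1 (up to 0.0548). The 2 h change was -0.17 ± 0.15 in TKO and 0.03 ± 0.15 in KO cells, neither called. The KO value turned to -0.40 (adjusted p = 0.0323) when libraries were scaled by their total reads, which also gave -0.40 in TKO cells (0.0435), as did upper-quartile scaling with -0.36 (0.0449). The 1 h change was called lower under 3 other scalings in DKO cells (-0.49 by total reads, 0.0158) and under 2 in WT cells (-0.45 by total reads, 0.0285). The median change of all genes at 2 h was -0.11 in DKO, -0.10 in KO and -0.16 in WT cells, and relative to it Foxo1 stood at -0.33 in DKO, 0.13 in KO and -0.31 in WT cells. From 0 to 4 h the change in KO cells differed from that in WT cells by 0.61 ± 0.22, which was not called (0.108).

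Klf3, a repressor of the same family as Klf2, fell least. Its TKO libraries held 34.2, 41.4, 42.4 and 61.7 normalized counts at 0 h, 24.5, 28.1, 28.6 and 46.8 after 1 h, 18.7, 22.0, 31.6 and 53.9 after 2 h and 12.2, 20.3, 29.1 and 31.1 after 4 h. The WT libraries held 114, 143, 207 and 240.3 at 0 h, 116, 123, 129 and 158 after 1 h, 158, 163, 179 and 179.7 after 2 h and 75.8, 94.7, 107 and 113 after 4 h. At every time each TKO library lay below each WT library, and in both genotypes the 0 h and 4 h ranges were separate but close. The DKO libraries held 65.9, 74.4, 77.3 and 111 at 0 h, 40.5, 47.0, 64.1 and 82.0 after 1 h, 58.5, 60.2, 87.1 and 108 after 2 h and 49.1, 59.0, 63.3 and 69.9 after 4 h. The KO libraries held 70.9, 88.8, 103 and 104 at 0 h, 62.9, 69.4, 86.7 and 101 after 1 h, 52.6, 64.8, 75.6 and 102 after 2 h and 46.0, 52.9, 58.8 and 61.8 after 4 h. Their ranges overlapped each other at every time and lay below that of WT cells.

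Between 0 and 4 h Klf3 changed by -0.98 ± 0.26 in TKO (adjusted p = 0.00124), -0.72 ± 0.26 in KO (0.0148) and -0.80 ± 0.26 in WT cells (0.00744), all called, and by -0.43 ± 0.26 in DKO cells (0.171). The WT call was lost without 0 h library 3 of WT cells (0.0518) and without library set 3 (-0.51 ± 0.26, 0.106). No 1 h or 2 h change of Klf3 was called, and without library set 3 the TKO changes at 1 h (-0.75, adjusted p = 0.0335) and 2 h (-0.98, 0.0017) were. The calls depended on scaling: the 2 h change was called in TKO cells under all 4 other scalings (-0.80 by total reads, 0.00637) and in KO cells under 3 of them (-0.76 by total reads, 0.0076, beside -0.33). The 1 h change was called in DKO cells under 3 of them (-0.80 by total reads, 0.00922) and by total reads in TKO (-0.66, 0.0418) and WT cells (-0.61, 0.0492), and the 4 h change in DKO cells under the deposited scaling (-0.71, 0.0166). The Klf3 gene overlaps Gm20033 on the opposite strand, which had 543 reads, 10.3% of the 5294 of Klf3, and no source used here states whether counting used strand. Part of Klf3's reads could therefore belong to its neighbour. Foxo1 also overlaps Gm20402 on the opposite strand, for which no values were used here.

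**Figure D2:**
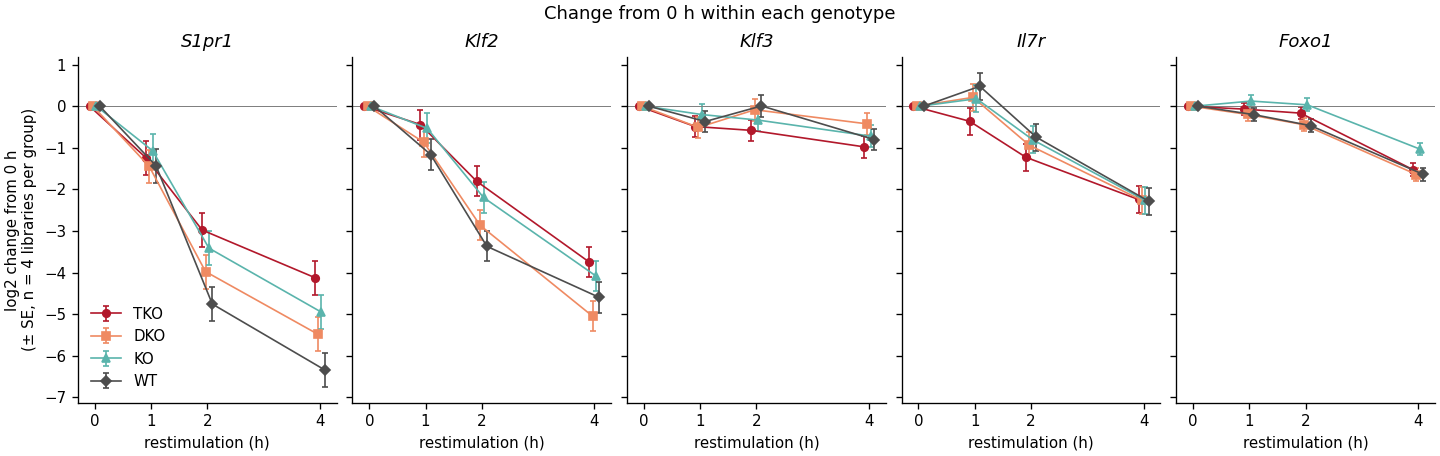
Log2 change from 0 h (vertical axis, ± SE, n = 4 libraries per group) of the 5 genes against hours of restimulation in TKO, DKO, KO and WT cells. At 4 h S1pr1 reaches -4.12 in TKO and -6.34 in WT cells, Il7r has nearly the same change in all genotypes, and Klf3 stays between -0.98 and -0.43.

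Against WT cells of the same time, the 5 genes did not move in 1 direction: Klf3 was called lower in TKO, DKO and KO cells and Klf2 in TKO cells at 0 h, while Il7r, Foxo1 and, late, S1pr1 were called higher in TKO and in KO cells. In TKO cells Klf2 and Klf3 were lower and Il7r and Foxo1 higher at 0 h, Klf3 lower and Foxo1 higher at 1 h, Klf3 lower and S1pr1 and Foxo1 higher at 2 h, and Klf3 lower and S1pr1, Il7r and Foxo1 higher at 4 h. Of all genes, 18.2% were lower and 19.3% higher in TKO cells at 0 h, 15.8% and 15.8% after 1 h, 16.6% and 20.1% after 2 h, and 16.5% and 27.4% after 4 h. In DKO cells Klf3 was lower at 0, 1 and 2 h, where 2.3%, 2.29% and 1.52% of all genes were lower. No member was called in DKO cells at 4 h by limma, with 3 at an unadjusted p under 0.05 and 0 by limma voom, a weighted fit of the whole reads recovered from the values (5.37% of all genes called). In KO cells 0 members were called at 0 h (2 unadjusted, 2 by voom, 1.32% of all genes) and 0 at 1 h (3 unadjusted, 0 by voom, 2.17%). At 2 h Klf3 was lower and Il7r and Foxo1 higher in KO cells, with 1.26% of all genes lower and 4.68% higher, and at 4 h Klf3 was lower and S1pr1, Il7r and Foxo1 higher, with 11.6% and 21.8%. The 3 knockouts share the WT libraries. The median log2 difference of all genes at 4 h was 0.20 in TKO and 0.22 in KO cells. Relative to it, S1pr1 stood at 1.45, Il7r at 1.08 and Klf3 at -2.29 in TKO cells, and Il7r at 0.96, Foxo1 at 0.38 and Klf3 at -1.03 in KO cells.

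The summed level of 7 B cell markers had its highest range in TKO cells at each time. It ran over the 4 libraries from 2730 to 3970 normalized counts in TKO, 1430 to 2090 in DKO, 1570 to 2350 in KO and 871 to 1810 in WT cells at 0 h, and from 1960 to 3020 in TKO, 1230 to 1670 in DKO, 1290 to 1960 in KO and 764 to 1410 in WT cells at 1 h. At 2 h it ran from 848 to 1640 in TKO, 563 to 723 in DKO, 666 to 1030 in KO and 325 to 739 in WT cells, and at 4 h from 504 to 687 in TKO, 183 to 270 in DKO, 211 to 378 in KO and 105 to 201 in WT cells. The part of other cells in the differences of the 5 genes was not tested.

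Klf3 had the largest difference of the 5 genes in TKO cells at every time. The libraries given above lay lower in TKO cells than in WT cells with no overlap at any of the 4 times, and those of DKO and KO cells did so too. The log2 difference of TKO from WT cells was -1.92 ± 0.26 at 0 h (adjusted p = 6.42e-08), -2.04 ± 0.26 at 1 h (1.56e-08), -2.51 ± 0.26 at 2 h (4.17e-11) and -2.10 ± 0.26 at 4 h (6.17e-09), so Klf3 was 3.79-fold to 5.69-fold lower. All 4 calls held without each library in turn and under all 12 other settings, where the values ran from -2.89 to -1.61. In DKO cells the differences were -1.06 ± 0.26 (0.00535), -1.20 ± 0.26 (0.00121), -1.15 ± 0.26 (0.00195) and -0.68 ± 0.26 (0.121) at 0, 1, 2 and 4 h. The 4 h difference in DKO cells was -0.79 ± 0.26 without library set 3 (0.0438). In KO cells they were -0.89 ± 0.26 (0.0716), -0.72 ± 0.26 (0.15), -1.23 ± 0.26 (0.00118) and -0.81 ± 0.26 (0.0152). The KO difference at 0 h was called by voom (0.00768), with a pseudocount of 5 (0.0486) and in a fit with a term for library set (0.00959), which also called that at 1 h (0.037).

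Il7r was higher than in WT cells in the means of every knockout at every time. At 0 h every TKO, DKO and KO library lay above every WT library, though the lowest TKO library, of set 3, did so by little. The log2 difference of TKO from WT cells was 1.23 ± 0.33 at 0 h (adjusted p = 0.00238) and 1.27 ± 0.33 at 4 h (0.00143), both called and 2.35-fold and 2.42-fold higher. At 1 and 2 h it was 0.39 ± 0.33 and 0.75 ± 0.33, not called, and without library set 3 it was 0.68 (0.0273) and 0.83 (0.00631). The TKO difference at 2 h was also called with no filter on low values (0.0421) and in a fit with a term for library set (0.00373). In KO cells the difference was 1.16 ± 0.33 at 0 h (0.0569), 0.86 ± 0.33 at 1 h (0.185), 1.10 ± 0.33 at 2 h (0.031) and 1.18 ± 0.33 at 4 h (0.00578). The KO libraries overlapped WT libraries at none of the 4 times. Without set 3 the KO differences at 0 and 1 h were called as well (1.30 and 0.87, with adjusted p-values of 0.00077 and 0.0355). At 0 h the KO difference was also called by voom (0.0413), under the deposited scaling (0.00182) and in a fit of the compared groups alone (0.00251). Fits with the place in the list or the library set as a block called it too (0.047 and 0.000263). At 1 h it was also called in a fit of the compared groups alone (0.0263) and with a term for library set (0.0081). The 2 h call in KO cells was lost without 2 h library 1 or 3 of KO cells or 1, 2 or 3 of WT cells (up to 0.146), and under all 4 other scalings and in a fit of the compared groups alone (up to 0.109), and the 4 h call without KO library 4 (0.0645) and under upper-quartile scaling (0.0566). In DKO cells the differences of 0.67 ± 0.33, 0.41 ± 0.33, 0.48 ± 0.33 and 0.69 ± 0.33 were not called, and those at 0 and 4 h were called without set 3 (0.83 and 0.88, with adjusted p-values of 0.0253 and 0.0178). A fit with a term for library set also called those at 0 and 4 h (0.0244 and 0.0261), and the deposited scaling that at 0 h (0.0244).

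S1pr1 changed its place with time. At 0 h every TKO library was below every WT library, with a log2 difference of -0.57 ± 0.41 that was not called (adjusted p = 0.28) but passed in voom (0.0299) and in a fit of the compared groups alone (0.0365). At 2 h the TKO level was higher by 1.21 ± 0.41 (0.0164), and at 4 h by 1.65 ± 0.41 (0.00101), 3.14-fold, with no overlap of libraries at 4 h. The 2 h call was lost without TKO library 1 or 4 or WT library 3 (up to 0.172), and when only the groups compared were fitted (0.225). In KO cells S1pr1 was higher by 1.25 ± 0.41 at 4 h (0.0174), with every KO library above every WT library. This KO call was lost under all 4 other scalings, in limma voom and in a fit of the compared groups alone (up to 0.122), and without KO library 3 or 4 or WT library 2 (up to 0.127). At 2 h the KO difference of 1.20 ± 0.41 was not called (0.0659). In DKO cells the difference was 0.74 ± 0.41 at 2 h and 0.82 ± 0.41 at 4 h, not called, and 1.21 ± 0.31 at 4 h without library set 3 (0.0105).

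Foxo1 was modestly higher in TKO cells at all 4 times. The log2 difference from WT cells was 0.40 ± 0.15 at 0 h (adjusted p = 0.0319), 0.54 ± 0.15 at 1 h (0.00553), 0.71 ± 0.15 at 2 h (0.000244) and 0.51 ± 0.15 at 4 h (0.00531). From 1 h on every TKO library was above every WT library. The 2 h call, 1.63-fold, held without each library and under all 12 other settings. The 0 h call was lost under 3 other scalings and in a fit of the compared groups alone (up to 0.196), and without TKO library 1 or WT library 1, 2 or 4 (up to 0.152). The 1 h call was lost under the deposited scaling (0.111). The 4 h call was lost under all 4 other scalings, in a fit of the compared groups alone (up to 0.24) and without set 3 (0.0776), and relative to the median of all genes the 4 h difference was 0.32. In KO cells Foxo1 differed by 0.50 ± 0.15 at 2 h (0.0367) and 0.61 ± 0.15 at 4 h (0.00278), with no overlap of libraries. The KO call at 2 h was lost under all 4 other scalings and that at 4 h under 3 of them, and both in a fit of the compared groups alone (up to 0.235 at 2 h and 0.151 at 4 h). They were also lost without KO library 1 or 2 or WT library 1, 2 or 4 at 2 h (up to 0.236), or KO library 4 at 4 h (0.0874). In DKO cells the differences ran from 0.13 to 0.16, none called, while the deposited scaling gave a called 0.42 at 0 h (0.0352).

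Klf2 was 2.63-fold lower in TKO than in WT cells at 0 h (log2 difference -1.40 ± 0.36, adjusted p = 0.00194), and every TKO library was below every WT library. This call held without each library, the highest WT library included, and under all 12 other settings. At 1, 2 and 4 h the TKO differences of -0.68 ± 0.36, 0.17 ± 0.36 and -0.55 ± 0.36 were not called, though that at 1 h was under the deposited scaling (-0.91, 0.0464) and by voom (0.0486). At 0 h the difference was -0.65 ± 0.36 in DKO and -0.57 ± 0.36 in KO cells, and neither was called, though the DKO one was by voom (0.0462). At 4 h the DKO difference of -1.10 ± 0.36 was not called (0.0602), and was called without library set 3 (-1.40, 0.0241), under the deposited (-1.24, 0.0462) and upper-quartile scalings (-1.22, 0.0419), with a pseudocount of 0.5 (-1.37, 0.0345) and in a fit with a term for library set (0.0266).

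**Figure D3:**
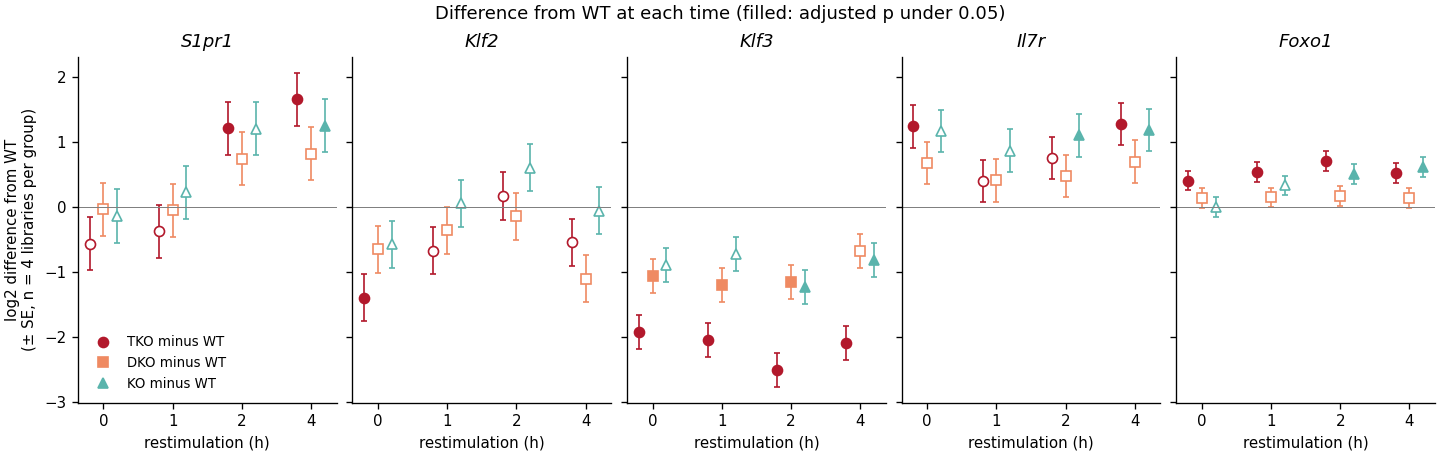
Log2 difference from WT cells of the same time (vertical axis, ± SE, n = 4 libraries per group) of the 5 genes in TKO, DKO and KO cells against hours of restimulation, with filled symbols for an adjusted p under 0.05. Klf3 lies between -2.51 and -1.92 in TKO cells, below the other knockouts at every time, and S1pr1 in TKO cells is at -0.57 at 0 h and 1.65 at 4 h.

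Among the knockouts, Klf3 had its lowest mean in TKO cells at every time. It was lower in TKO than in KO cells at all times, with log2 differences of -1.03 ± 0.26 at 0 h (adjusted p = 0.00402), -1.32 ± 0.26 at 1 h (0.000358), -1.27 ± 0.26 at 2 h (0.000549) and -1.28 ± 0.26 at 4 h (0.00124), where 8.92%, 3.9%, 4.49% and 0.644% of all genes were lower. Klf3 was also lower in TKO than in DKO cells, with differences of -0.86 ± 0.26 at 0 h (0.0194), -1.36 ± 0.26 at 2 h (0.000338) and -1.41 ± 0.26 at 4 h (0.000137), where 6.07%, 3.41% and 4.92% of all genes were lower. The 0 h call was lost without TKO library 2 or 4 or DKO library 1 (up to 0.0762) and without library set 3 (-0.65, 0.0751). Klf3 libraries of TKO cells overlapped those of DKO cells at 1 h, reaching 46.8 beside a lowest DKO value of 40.5. They overlapped those of KO cells at 2 h, reaching 53.9 beside a lowest KO value of 52.6. At 1 h the TKO to DKO difference of Klf3 was -0.84 ± 0.26, at the threshold (0.05), and 0 members were called there (2 unadjusted, 0 by voom, 4.11% of all genes). Foxo1 was higher in TKO than in DKO cells at 2 h (0.55 ± 0.15, 0.0192, with 3.35% of all genes higher), a call lost without TKO library 3 or 4 or DKO library 1 (up to 0.091) and when only these groups were fitted (0.0981). Between DKO and KO cells limma called 0 members at 0, 1, 2 or 4 h, against 1.18%, 1.33%, 2.81% and 3.06% of all genes, with 0, 0, 2 and 2 members at an unadjusted p under 0.05 and 0 by voom at each time. The largest of these, for Klf2 at 4 h, was -1.04 ± 0.36. The difference of Klf3 between TKO and DKO cells at 1 h was called under all 4 other scalings (adjusted p-values of 0.00932 to 0.0483), with a pseudocount of 0.5 (0.0492) and in a fit with a term for library set (0.00797). For Klf2 at 0 h the TKO to KO difference was called under the deposited scaling (-1.02, 0.046), with a pseudocount of 5, in a fit of these groups alone and by voom. Without library set 3 further differences of TKO cells were called, for Klf3 against DKO cells at 1 h (-0.99, 0.0189), for Il7r against DKO cells at 0 h (0.93, 0.00709), and for Foxo1 against DKO cells at 0 and 1 h (0.39 and 0.53, with adjusted p-values of 0.0461 and 0.0211) and against KO cells at 0 h (0.50, 0.00771).

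Whether the loss of all 3 genes differed from the sum of the Roquin and the Regnase-1 losses was tested at each time as TKO minus DKO minus KO plus WT. No member was called (0 of 20 in limma, 0 at an unadjusted p under 0.05 and 0 by voom), where 0.731%, 0.279%, 0.155% and 0.167% of all genes were called at 0, 1, 2 and 4 h. At 0, 1, 2 and 4 h this term was -0.60, -0.88, -0.83 and -0.60 for Il7r on the log2 scale, and -0.39, -0.54, -0.74 and -0.41 for S1pr1. It ran from -0.37 to 0.62 for Klf2 and from -0.22 to 0.27 for Foxo1. For Klf3 it was 0.03 ± 0.37 at 0 h and -0.60 ± 0.37 at 4 h. An SE of 0.37 is wide beside the KO difference of -0.89 at 0 h, which limits how small a departure from the sum could be detected.

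In TKO cells S1pr1 had a change over time that was called different from that of WT cells. Its log2 change from 0 to 4 h was smaller by 2.22 ± 0.58 in TKO than in WT cells (adjusted p = 0.00998), where 4.78% of all genes had a higher change. The difference was positive in each of the 4 library sets, at 2.84, 1.97, 1.68 and 2.40, and stayed called without each library and under all 12 other settings (1.82 to 2.30). At 0 to 2 h it was 1.78 ± 0.58 and not called (0.0613), and without library set 3 it was 1.38 ± 0.44 (0.0443). For Klf2 the same 2 h term was 1.56 ± 0.51 (0.0636), and for Klf3 it was -1.28 ± 0.37 without set 3 (0.0242). The Klf2 term was called with a pseudocount of 5 (1.49, 0.0112) and in a fit with a term for library set (0.029), and that fit also called the S1pr1 term to 2 h (0.0146) and the Foxo1 term to 4 h in KO cells (0.0482). Over all 9 such comparisons 1 of 45 member results was called, with 8 at an unadjusted p under 0.05, 2 by voom, 3 with a pseudocount of 5, 3 without library set 3 and 4 in a fit with a term for library set. The share of all genes called in either direction was 0.737%, 4.54% and 6.64% for TKO cells to 1, 2 and 4 h, 0.105%, 0.335% and 0.824% for DKO cells, and 0.0248%, 0.204% and 2.19% for KO cells. The values at 4 h rest on 107 reads of S1pr1 in TKO cells and 31 in WT cells.

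The authors' deposited table gives its own log2 fold changes for these genes. For Klf3 in TKO over WT cells the authors' deposited table lists -1.90 (authors' false discovery rate 0.002) at 0 h and -2.13 (authors' false discovery rate 0.000262) at 4 h. For Il7r in KO over WT cells the authors' deposited table lists 1.11 (authors' false discovery rate 0.004) at 0 h and 0.78 (authors' false discovery rate 0.011) at 1 h, calls that limma as fitted here for the main values did not make. With the deposited scaling limma called the 0 h difference too (1.42, 0.00182). For Klf3 in DKO over WT cells at 4 h the authors' deposited table lists -0.66 (authors' false discovery rate 0.037), which limma did not call. Foxo1 in KO cells at 4 h, listed at 0.37 (authors' false discovery rate 0.039), was called by limma too. Over time the authors' deposited table lists -0.64 (authors' false discovery rate 0.018) for Il7r in WT cells from 0 to 2 h. For Klf2 in DKO cells from 0 to 1 h it lists -0.85 (authors' false discovery rate 0.029). The main limma fit called neither. In the other direction, the authors' deposited table has -0.86 (authors' false discovery rate 0.09) for Klf3 in DKO cells at 0 h, which limma called. Other limma calls against WT cells also had authors' false discovery rates above 0.05. They were S1pr1 in TKO cells at 2 h (0.157) and in KO cells at 4 h (0.064). For Foxo1 they were TKO cells at 0 and 1 h (0.115 and 0.103) and KO cells at 2 h (0.192). Over time the same held for Klf3 from 0 to 4 h in WT (0.115) and KO cells (0.06). For Foxo1 from 0 to 2 h it held in WT (0.096) and DKO cells (0.055).

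Set in order over the 16 groups, S1pr1 was highest in WT cells at 0 h and lowest in WT cells at 4 h. Of its 15 neighbouring pairs of groups in that order, 13 overlapped in their libraries, and the gaps lay between KO and TKO cells at 0 h and between TKO cells at 1 h and at 2 h. Klf2 ran from WT cells at 0 h down to DKO cells at 4 h, with 14 of 15 neighbours overlapping and the gap between DKO cells at 2 h and WT cells at 4 h. Klf3 ran from WT cells at 0 h to TKO cells at 4 h, with 14 of 15 overlapping and the gap between WT cells at 1 h and at 4 h. Il7r was highest in KO cells at 1 h, at 1418 ± 270.0, and lowest in WT cells at 4 h, and all 15 neighbours overlapped. Foxo1 ran from TKO cells at 0 h, at 2219 ± 367, to WT cells at 4 h, at 537 ± 76.2, with 13 of 15 overlapping. Per kilobase of exon at 0 h, Il7r held 302.6 ± 130.0 normalized counts in TKO and 119.3 ± 17.6 in WT cells, Foxo1 256 ± 42.4 in TKO and 193 ± 28.9 in WT cells, and S1pr1 138 ± 34.1 in TKO and 199 ± 19.2 in WT cells. On the same scale of level per length Klf2 held 34.1 ± 11.5 in TKO and 90.1 ± 34.2 in WT cells, and Klf3 3.99 ± 1.05 in TKO and 15.7 ± 5.15 in WT cells. Klf3 was thus the lowest of the 5 by length in both genotypes at 0 h. In WT cells at 2 h it stood at 15.1 ± 0.98, above S1pr1 at 8.49 ± 5.15 and Klf2 at 7.96 ± 1.74.

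Over the 16 group means of log2 normalized counts, S1pr1 and Klf2 ran closest of the members (Pearson r = 0.955), followed by Il7r and Foxo1 (0.918) and S1pr1 and Il7r (0.880). Klf3 correlated with the other 4 at -0.036 to 0.366. These values describe 16 group means that share 4 times and 4 genotypes and carry no test. The genes most like S1pr1 among all 16140 were Kbtbd11 (0.994), Ccng2 (0.992) and Arhgap9 (0.991), and Klf2 was like Rasa3 (0.989) and Apol7e (0.986). Il7r was most like Ccni (0.984), Gm16439 (0.981) and Actr10 (0.977), and Foxo1 was most like Gabarapl2 (0.987), Ero1lb (0.982) and Gpx4 (0.976). Klf3 had looser companions, B630019A10Rik (0.969), BC049352 (0.949) and E030030I06Rik (0.940).

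Around the members stand 92 further genes in 6 lists, 82 of which were tested. In WT cells from 0 to 4 h, 39 of the 82 fell and 13 rose (median log2 change -0.57, against 0.01 over all genes tested), where 27.1% of all genes were lower and 24.7% higher. Of the FOXO family with its regulators and targets, 16 of 23 fell and 3 rose (median -1.30), and of the naive and central memory homing genes 7 of 10 fell and 1 rose (median -2.10). Of the other KLF genes 5 of 10 fell and 2 rose, of the other quiescence factors 6 of 17 fell and 2 rose, of S1P metabolism and other S1P receptors 4 of 12 fell and 3 rose, and of IL-7 receptor signalling 4 of 13 fell and 2 rose. Ypel3, a gene linked to growth arrest, changed by -5.22 ± 0.24 (adjusted p = 8.97e-26), and Txnip, an inhibitor of glucose uptake, by -4.15 ± 0.69 (1.13e-06). Stat5a, which carries the signal of the interleukin-7 receptor, rose by 4.18 ± 0.16 (3.39e-29). Sphk1, a kinase that makes sphingosine-1-phosphate, averaged 59.8 ± 18.9 normalized counts in WT cells at 4 h, against 0.213 ± 0.427 at 0 h. Ccr7, a chemokine receptor of lymph node homing, changed by -0.76 ± 0.25 (0.00813). Its WT means were 679.6, 215.3, 67.96 and 396.5 normalized counts at 0, 1, 2 and 4 h, so its lowest level was at 2 h. Cd69, whose protein pulls S1PR1 from the cell surface, rose by 1.40 ± 0.20 (2.31e-08), and its mean peaked at 1 h in all 4 genotypes, at 9153 in TKO and 7968 in WT cells.

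Between genotypes at 0 h, 22 of the 82 were higher and 6 lower in TKO than in WT cells (median 0.23, against 0.07 over all genes), where 19.3% of all genes were higher and 18.2% lower. IL-7 receptor signalling had 8 of 13 higher and 0 lower (limma), the FOXO list 5 of 23 higher and 2 lower, and the other KLF genes 0 of 10 in either direction. The homing list had 3 of 10 higher and 3 lower, S1P genes 3 of 12 higher and 1 lower, and other quiescence factors 4 of 17 higher and 1 lower. Tcf7, a factor of naive and memory T cells, was higher by 1.79 ± 0.22 (8.53e-09), and S1pr3, another S1P receptor, by 3.60 ± 0.60 (5.15e-06), at 39.6 ± 29.9 normalized counts in TKO and 2.33 ± 1.76 in WT cells. Sgk1, a kinase linked to cell survival, was lower, at -1.03 ± 0.36 (0.0196), and so was the S1P receptor S1pr4, at -0.89 ± 0.26 (0.00473). Ccr7 (1.07 ± 0.25, 0.000662) and Cd69 (0.90 ± 0.20, 0.000366) were higher in TKO cells. In DKO cells 6 of the 82 were higher and 1 lower, where 5.35% and 2.3% of all genes were, with Ccr7 at 1.09 ± 0.25 (0.00263), Tcf7 at 1.00 ± 0.22 (0.00188) and Klf16, a factor of the KLF family, at -0.79 ± 0.22 (0.0198). Cd69 differed by 0.23 ± 0.20 in DKO cells and was not called. In KO cells 2 were higher and 0 lower, where 1.15% and 0.167% of all genes were, namely Tcf7 (0.89 ± 0.22, 0.0211) and Stat3 (0.51 ± 0.12, 0.0151). Ccr7 at 0.55 ± 0.25 and Cd69 at 0.27 ± 0.20 were not called in KO cells.

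**Figure D4:**
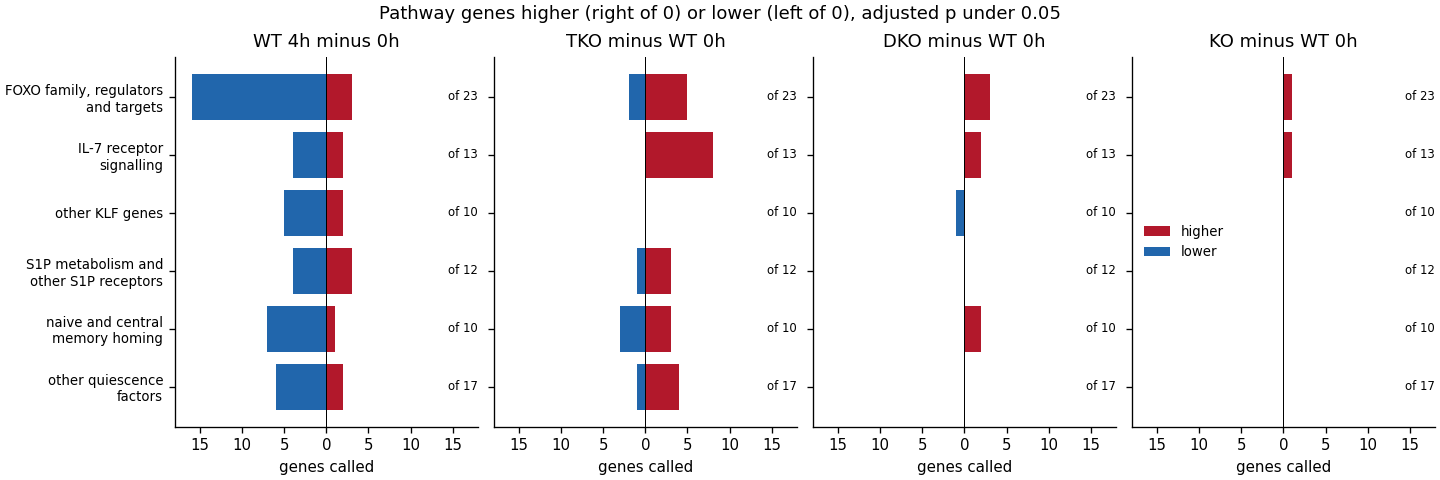
Number of pathway genes called higher (right of 0) or lower (left of 0) at an adjusted p under 0.05 in 6 lists, with the number tested at the right, for WT cells at 4 h against 0 h and for TKO, DKO and KO cells against WT cells at 0 h. The FOXO list has 16 of 23 genes lower in WT cells at 4 h, and IL-7 receptor signalling has 8 of 13 higher in TKO cells at 0 h.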

How the data were processed

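Total RNA of CD4 T cells was extracted with Trizol and made into libraries with a NuGEN Universal RNA-Seq kit, per the labels' protocols, and the genome build was GRCm38, per the submitters' processing notes. The aligner, counter, annotation and strand setting were not given in the sources used here. What the authors deposited is, per the file headers, a table of 23134 genes with a list of 4 normalized read counts per group (signal), group means within 0.0491% of the means of the lists, and their own log2 fold changes and false discovery rates (adjusted p-values), quoted only where named. The headers name these rates worst, without saying over what, so they need not be the same measure as the limma adjusted p-values. The lists carry no replicate numbers.

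In every library 100% of low values came out as whole reads (tolerance 0.1 read). The top 10 genes held 26.6 to 38.1% of a library's reads. Values were scaled to the median depth by TMM, a trimmed mean of log ratios between libraries (30 and 5 percent trimmed), and tested as log2(value + 1) with limma 3.58.1 in R 4.3.3, which understates changes of low genes. Genes with at least 10 reads at the median depth (1.3 CPM) in at least 4 libraries and 15 reads in sum were kept, 16140 in all. The model had 1 mean per group over 64 libraries (48 residual degrees of freedom, median residual SD 0.328 on the log2 scale) with trended and robust moderation. P-values were 2-sided, Benjamini-Hochberg adjusted over all genes tested, and called under 0.05. The scripts were tested on simulated data. Levels per length used the exon union of GENCODE M21.

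The 5 members, the lists and the tests were chosen with earlier results of these data known. Named pathway genes were the 2 most raised and the 2 most lowered among the called genes of the lists in each contrast shown, with Ccr7 and Cd69 always given. A few genes that these rules name are not reported here. The 3 genes most like a member had the highest Pearson r over 16 group means. Library sets were found in the data from 4668 genes without the members. Alternatives were 4 other scalings, pseudocounts of 0.5 and 5, no filter, a fit of the compared groups alone, the place in the list as a block, the library sets as a block, voom, library set 3 left out, and each library left out in turn. The library sets as a block, voom and leaving out set 3 were added after the data were seen. Of the other marker lists, CD8 T cell markers summed to 26.4 to 397 normalized counts over the libraries, myeloid to 162 to 613, dendritic to 7.32 to 129 and erythroid or platelet to 0 to 35.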

Additional observations from a re-analysis of the deposited data

Results flagged for a closer look

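In 6 of 80 gene and group combinations, 1 library stood far from the other 3, with a gap above Dixon's critical value for 4 values, which chance gives in about 1 in 20 groups. Values in parentheses are the gap as a share of the range of the group. Foxo1 in WT cells at 4 h had 1 low library, at 423 normalized counts beside 574 to 578 (0.973). Il7r in WT cells at 1 h had 1 low library, at 621 beside 815 to 846 (0.863). Klf2 in WT cells at 0 h had 1 high library, at 260.3 beside 127 to 147 (0.845). S1pr1 had 1 low library in TKO cells at 0 h, at 263 beside 459 to 480.0 (0.903), and 1 low library in KO cells at 0 h, at 496 beside 561 to 572 (0.849). In WT cells at 0 h S1pr1 had 1 high library, at 694 beside 571 to 583 (0.9). The libraries named here for Foxo1, Il7r and Klf2 in WT cells and for S1pr1 in TKO cells were all of library set 3. Those named for S1pr1 in KO and in WT cells were of sets 1 and 4.

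The change of S1pr1 from 0 to 4 h differed between TKO and WT cells by 2.22 on the log2 scale (limma interaction term, adjusted p = 0.00998), as the report gives, and was positive in 4 of 4 library sets.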

How the results depend on the processing

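Of 69 member results called, 51 were called under all 12 other settings and without each library in turn, and the exceptions stand beside their values in the report. Over 5420 alternatives of member results, 5196 stayed on the same side of the threshold, 85 lost the call, 138 gained one and 1 turned round. That 1 was Foxo1 in KO cells at 2 h against 0 h (0.03, and -0.40 under scaling by total reads, the cause was not tested). Of the 5196, 234 changed sign with no call in either fit. Calls over time numbered 37 of 60 (35 to 39 without 1 library), those against WT cells 23 of 60 (18 to 27), those among knockouts 8 of 60 (7 to 10), those of a different change 1 of 45 (1 to 3), and those of non-additivity 0 of 20 in every fit. Under the other settings the counts ran from 37 to 48 over time and from 17 to 33 against WT cells. The count of different changes was 3 with a pseudocount of 5, 2 by voom and 3 without library set 3. The place in the list as a replicate block gave 38, 24, 8, 1 and 0 calls, and libraries of like place did not vary together (mean r 0.0186, against 0.00315 for other places). The library sets as a replicate block, found in the data and not in the design, gave 40, 33, 14, 4 and 0 calls in the same order. A planned count model on recovered reads was not run, and voom on those reads took its place. Depth limits S1pr1 and Klf2 at 4 h.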
